A study of Homo sapiens with 4 samples.

Results

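The Rab GTPases and the proteins with a TBC domain were followed through the splicing tables of U87MG cells, a human glioblastoma cell line, transfected with a decoy oligonucleotide against RBFOX1/2. Members were all events whose gene symbol is RAB followed by a number and at most 1 letter, or begins with TBC1D and a number. This gave 713 events in 67 genes, 42 Rab genes and 25 TBC1D genes, out of 121269 events in 12219 genes. The experiment had 4 RNA-seq libraries, 2 of cells given 2.5 µM of RBFOXi, a modified RNA oligonucleotide carrying tandem copies of the RBFOX motif, and 2 of cells given 2.5 µM of SCRM, a scrambled control. Both oligonucleotides were delivered by lipid transfection, so the controls share the transfection and a foreign RNA with the treated cells. The labels name the dye Cy5 for the oligonucleotide of RBFOXi library 1 and no dye for the others, so the dye cannot be told apart from that library. The study calls the libraries independent biological replicates of 1 cell line. Libraries are numbered 1 and 2 as the sample labels number them for the tables. Same-numbered libraries of both groups share an ending in their labelled names, D_R for 1 and P for 2, whose meaning the labels do not give.

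Rab GTPases are small switch proteins that sit on the membranes of the secretory and endocytic pathways, each on its own set of compartments. Bound to GTP they recruit effectors that move, tether or fuse vesicles. Exchange factors load them with GTP, and GTPase activating proteins, most of which carry a TBC domain, return them to the inactive state. RBFOX proteins bind UGCAUG in introns, and in many genes a site downstream of an exon goes with its inclusion and a site upstream with its skipping.

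The proportion spliced in (PSI) runs from 0, where the alternative stretch is always left out, to 1, where it is always kept. It was computed from the deposited counts of inclusion and skipping reads divided by the effective length of each form. Delta PSI is the mean of the RBFOXi libraries minus the mean of the SCRM libraries. The members comprised 486 skipped exon events, 192 pairs of exons counted as mutually exclusive, 18 exons with a choice of 3′ splice site, 14 with a choice of 5′ splice site and 3 introns that can be retained. Of the 486 skipped exon events, 243 had enough counts of both forms to be tested, at 178 distinct exons in 58 genes. Among the 243 untested events, 208 had fewer than 4 skipping counts over all libraries, 1 had fewer than 4 inclusion counts and 34 had low counts. The 9 genes without a tested skipped exon were RAB15, RAB24, RAB26, RAB37, RAB40B, RAB9B, TBC1D10C, TBC1D3 and TBC1D9. In those 208 events the skipping form was thus rarely read, but an exon can belong to more than 1 event and be skipped in another.

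Over skipped exon events the libraries held between 114415530 and 136097319 counts, where 1 read may enter the count of more than 1 event. The counts of VIM, CD44, TNC and FN1, which mark mesenchymal and glioma cells, were high in every library, with event maxima between 17378 and 185009. NES, a marker of neural stem and glioma cells, had 179 to 432 counts at its only event. The neuronal genes MAP2 and SYP were read too, at up to 176 to 642 and 24 to 34 counts. No skipped exon event was listed for PTPRC, EPCAM, CDH1, RBFOX1 or RBFOX3. RBFOX2, the decoy's target, had between 351 and 2392 counts at its highest event. SCRM library 1 stood apart from the other 3. The median count behind a tested member exon event was 376 there and between 603 and 654 elsewhere. Scaled by the library total, the counts of the 58 member genes in SCRM library 1 were a median of 0.621 times the median of the other libraries, against 0.726 for all 9325 genes with a tested event. For the exons named below, the value of SCRM library 1 is given beside those of the others.

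No Rab or TBC1D event changed at the threshold of an adjusted p-value under 0.05 (limma on the log2 odds of inclusion, Benjamini-Hochberg) and a delta PSI of at least 0.1 in size. The count was 0 of 243 skipped exon events, where 0.0682% of all 39615 tested events were called. It was also 0 of 184 pairs of mutually exclusive exons, 0 of 10 alternative 3′ sites, 0 of 11 at the 5′ end and 0 of 3 introns, types in which the share called over all events was 0% as well. The smallest adjusted p-value of a member was 1 for skipped exons, 1 for mutually exclusive exons, 0.999 for alternative 3′ sites, 0.995 for alternative 5′ sites and 1 for retained introns. Of the 243 skipped exon events, 6 had an unadjusted p-value under 0.05 (2.47%), 5 with higher and 1 with lower inclusion, where all tested events gave 3.61%. The quasi-binomial F test gave 12 such member events (4.94%, against 6.99% of all). It called 0 members, where 0.114% of all events were called. For mutually exclusive exons 2 of 184 had an unadjusted p-value under 0.05 (1.09%, against 1.51% of all), and for alternative 3′ sites 1 of 10 (3.32% of all). For alternative 5′ sites and retained introns the count was 0, against 3.59% and 1.74% of all.

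The RBFOXi and SCRM libraries did not overlap in PSI for 77 of the 243 skipped exon events (31.7%), 37 higher and 40 lower with RBFOXi, and 30.8% of all tested events showed such a separation. In mutually exclusive exons 48 of 184 did so (26.1%, against 24.4% of all). The member counts were close to the background in both types. So few events were tested of the other types that their shares say little, with 2 of 10 alternative 3′ sites (30.9% of all), 3 of 11 alternative 5′ sites (30.1% of all) and 2 of 3 introns (27.9% of all) separated. The median delta PSI of the skipped exon members was -0.000193, and that of all tested events was -5.65e-05. In size, the median was 0.00567 in members and 0.00803 in all events, and 2.47% of members against 4.83% of all events differed by 0.1 or more. At 162 of the 178 exons the mean PSI differed by less than 0.05. The test is coarse for single exons. The 95% interval of the log2 odds change lay within 1 log2 unit of 0 at 5 exons and within 2 log2 units at 46, so a change of that size was not excluded at most of the exons.

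**Figure D1:**
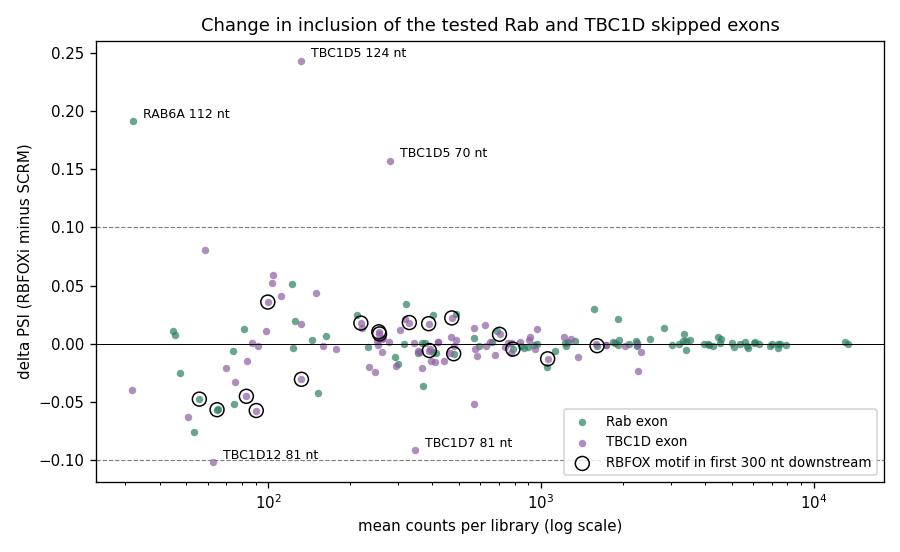
Delta PSI (RBFOXi minus SCRM) of the 178 tested Rab (green) and TBC1D (purple) skipped exons against the mean counts per library on a log scale. Dashed lines mark a delta PSI of 0.1 in size and rings mark the 18 exons with UGCAUG in the first 300 nt downstream. The exons beyond the dashed lines are those of TBC1D5 (124 and 70 nt), RAB6A (112 nt) and TBC1D12 (81 nt), each with fewer than 20 counts in SCRM library 1, and no exon with 1000 counts or more lies beyond them.

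The exons themselves were mostly constitutive. The mean PSI in SCRM was 0.95 or more at 125 of the 178 exons (70.2%), between 0.05 and 0.95 at 35 (19.7%) and 0.05 or less at 18 (10.1%). Over all 30617 tested exons the middle class held 28.7%. The TBC1D genes had 20 of 86 exons in it (23.3%) and the Rab genes 15 of 92 (16.3%). Exon lengths had a median of 105 nt, against 120 nt over all tested exons, and 41.0% were a multiple of 3 nt, against 42.6%. The introns beside them were longer than in the rest of the table, with a median of 4520 nt upstream and 4150 nt downstream, against 2510 and 2250 nt.

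**Figure D2:**
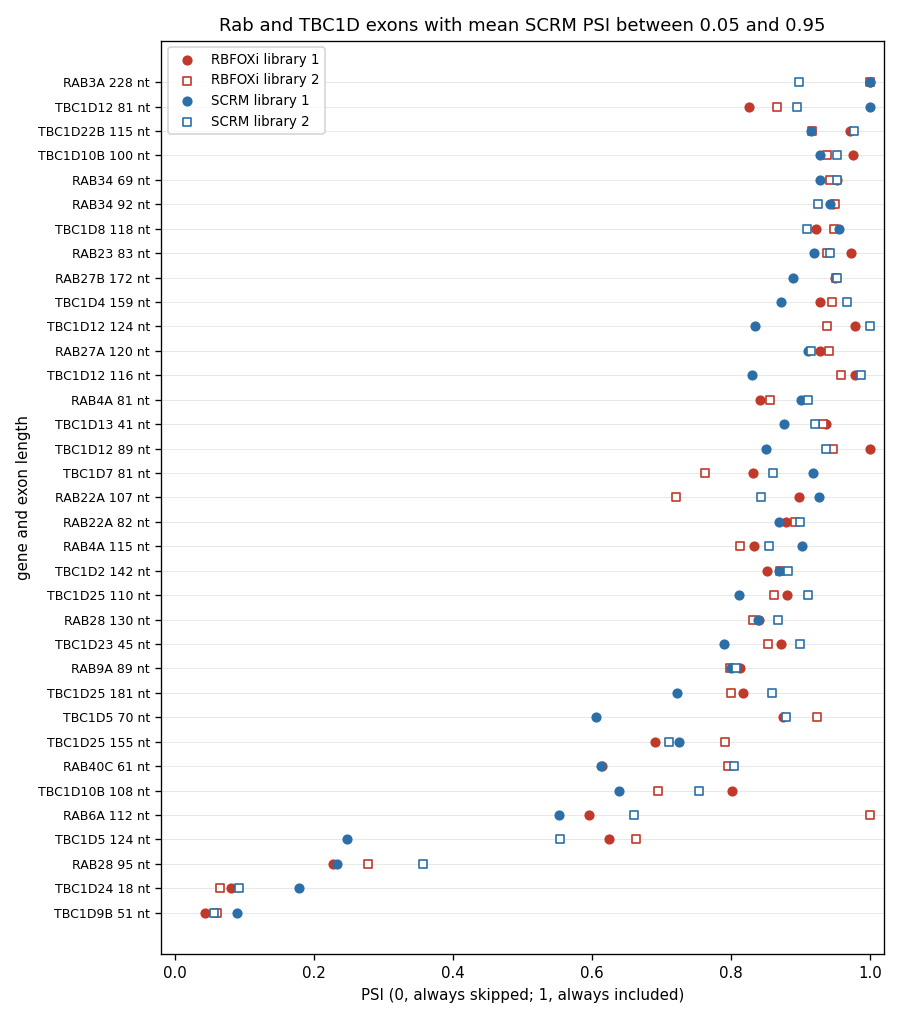
PSI in each library (red, RBFOXi; blue, SCRM; filled circles, library 1; open squares, library 2) for the 35 Rab and TBC1D exons with a mean SCRM PSI between 0.05 and 0.95, named by gene and exon length and ordered by the SCRM mean. SCRM library 1 is the lowest or the highest of the 4 libraries at 27 of these exons, and the lowest at 20. The SCRM mean that chose the exons includes this library, so the choice can bring in exons where it lies apart.

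RAB6A, which directs transport from endosomes and the Golgi towards the endoplasmic reticulum, is the family's textbook case of a pair of duplicated exons. Its 2 coding exons of 106 nt each lie on chromosome 11 of hg19, minus strand, at chr11:73429830-73429935 (the upstream exon in the RNA) and chr11:73429658-73429763 (the downstream exon), with an intron of 66 nt between them. They are shown because the pair is the only member pair with UGCAUG within 300 nt on both sides, 5′ to 3′ as the strand of the gene reads, with the 31 bases that differ in capitals.
RAB6A upstream exon: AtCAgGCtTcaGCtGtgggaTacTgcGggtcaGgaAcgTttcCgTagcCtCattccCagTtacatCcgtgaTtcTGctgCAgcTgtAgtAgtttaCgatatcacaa
RAB6A downstream exon: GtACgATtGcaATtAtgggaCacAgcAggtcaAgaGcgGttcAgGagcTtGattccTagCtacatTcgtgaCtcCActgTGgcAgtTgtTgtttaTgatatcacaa
The exons share 75 bases (70.8%). In the RNA, 1 copy of UGCAUG begins 121 nt before the upstream exon, and 2 overlapping copies begin 53 and 57 nt after the downstream exon. The windows around them follow with the motif in capitals, the second copy of the later window running on from the first in lower case.
RAB6A before the pair (chr11:73430039-73430068, minus strand): ccugcaaccucuUGCAUGagucuucuuucu
RAB6A after the pair (chr11:73429588-73429617, minus strand): cuuuagcuuagcUGCAUGcauguucuuguc
The motif was present within 300 nt on both sides of 1 of 133 member pairs (0.752%) and of 0.754% of all 20683 tested pairs. At least 2 copies downstream were present for 2 member pairs (1.5%) and 0.595% of all pairs.

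For the RAB6A pair, PSI is the share of the upstream exon among transcripts with either exon. It was 0.633 and 0.651 in the RBFOXi libraries, on 1323 and 1656 counts, and 0.535 and 0.606 in the SCRM libraries, on 344 and 1739 counts. Both RBFOXi libraries had more of the upstream exon than both SCRM libraries, and the lowest value came from SCRM library 1. The exact 95% counting intervals were 0.606 to 0.659, 0.627 to 0.674, 0.481 to 0.589 and 0.582 to 0.629 in that order. The interval of SCRM library 2 overlaps those of both RBFOXi libraries. These intervals cover counting error only. Delta PSI was 0.0716, a log2 odds change of 0.43 ± 0.20 (SE), with an unadjusted limma p-value of 0.0617, and it was not called. Without SCRM library 1 delta PSI was 0.0363. Without SCRM library 2 it was 0.107, with an adjusted limma p-value of 0.0164. Counted one by one as skipped exons, both exons were near full inclusion, between 0.992 and 1 for the upstream and between 0.985 and 1 for the downstream exon, since the form without either was rare.

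The other exons of RAB6A varied little, except a coding exon of 112 nt at chr11:73427296-73427407 with few counts. Its PSI was 0.595 and 1 in the RBFOXi libraries and 0.553 and 0.660 in the SCRM libraries, on 28, 44, 8 and 48 counts. The groups overlapped, and RBFOXi library 2 alone gave the difference, since delta PSI went from 0.191 to -0.0111 without it. The coding exon of 94 nt at chr11:73418465-73418558 was at 0.988 and 0.989 with RBFOXi and at 0.929 and 0.980 with SCRM, where SCRM library 1 was again the lowest. Only 1 and 1 skipping reads with RBFOXi and 2 and 2 with SCRM lie behind these values.

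Of the other pairs counted as mutually exclusive, many can also occur together in 1 transcript, so their PSI is a ratio of reads over the exon that comes first and the exon that comes second. RAB34, a Rab of the Golgi and the primary cilium, has exons of 52 and 58 nt at chr17:27042474-27042525 and chr17:27042237-27042294. The share of the first was 0.742 and 0.710 with RBFOXi and 0.674 and 0.645 with SCRM, on 425 to 697 counts. The groups did not overlap, SCRM library 1 was not the extreme value, and the unadjusted limma p-value was 0.0844. At the same 58 nt exon of RAB34 an alternative 5′ splice site gave 0.851 and 0.849 against 0.831 and 0.814 for the longer form of 82 nt. An alternative 3′ splice site of RAB34 at chr17:27044231-27044443 gave 0.747 and 0.759 against 0.735 and 0.743. These 3 RAB34 events were named by a rule that asks for groups without overlap, so their separation follows from the choice. The pair and the 5′ splice site also share the 58 nt exon. Its counts were 131 and 140 with RBFOXi and 256 and 176 with SCRM in the pair. At the 5′ splice site they were 131 and 140 against 254 and 176, so the pair and this site are not separate observations. None of the 3 events had an unadjusted p-value under 0.05. Of the tested skipped exons of RAB34, some were higher with RBFOXi and at others the groups overlapped.

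**Figure D3:**
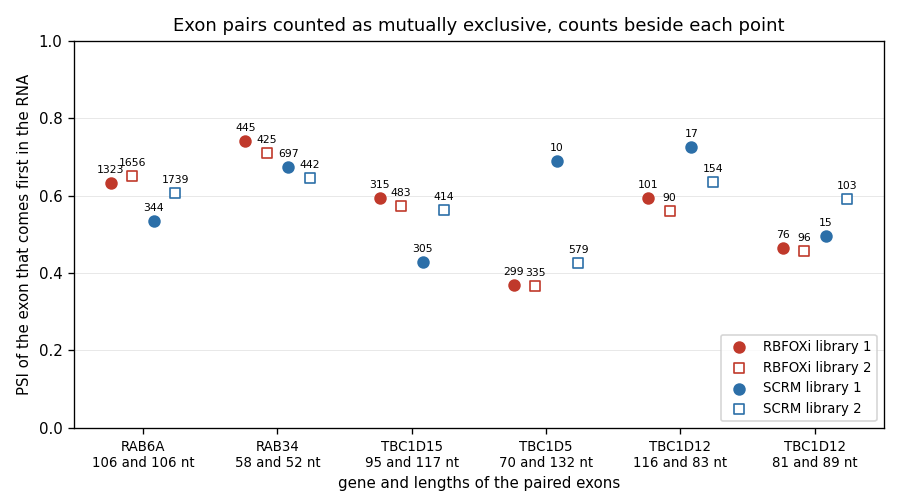
PSI of the exon that comes first in the RNA for 6 named pairs of Rab and TBC1D exons in each library (red, RBFOXi; blue, SCRM; filled circles, library 1; open squares, library 2), with the counts written above each point. The RAB6A, RAB34 and TBC1D15 points of RBFOXi lie above those of SCRM, and those of the TBC1D5 and TBC1D12 pairs lie below. All 6 pairs met a naming rule that asks for groups without overlap, so this separation follows from the choice. For TBC1D5 SCRM library 1 rests on 10 counts.

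TBC1D15, an activating protein for RAB7 at mitochondria and lysosomes, gave 0.594 and 0.572 with RBFOXi and 0.429 and 0.562 with SCRM for its exons of 95 and 117 nt at chr12:72291627-72291721 and chr12:72300802-72300918. SCRM library 2 was 0.0211 below the RBFOXi mean, and SCRM library 1 gave nearly all of the delta PSI of 0.0874. In TBC1D12, which binds recycling endosomes, the pair of 116 and 83 nt exons gave 0.593 and 0.560 against 0.724 and 0.634, and the pair of 81 and 89 nt exons 0.464 and 0.456 against 0.496 and 0.592. Both had the RBFOXi libraries below the SCRM libraries, on 15 to 17 counts in SCRM library 1.

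With SCRM library 2 left out, so that SCRM library 1 stood alone for the control, 8 of the 182 member pairs then tested were called (4.40%), and so were 5.52% of all 25913 pairs. They were 1 pair each of RAB6A, RAB18, RAB2A and TBC1D12, and 2 each of TBC1D15 and TBC1D5. RAB18, for example, gave 0.555 and 0.576 with RBFOXi and 0.461 and 0.599 with SCRM, and RAB2A 0.653 and 0.658 against 0.546 and 0.663. In both, SCRM library 1 was the lowest and SCRM library 2 the highest. Without SCRM library 1, delta PSI for these 8 pairs lay between -0.0699 and 0.0363, and no member pair was called.

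TBC1D5, an activating protein for RAB7 that works with the retromer coat on endosomes, held the largest delta PSI of the 178 tested exons. Its tested events had 2277 and 2559 counts in the RBFOXi libraries and 190 and 4205 in the SCRM libraries. Scaled by library total, SCRM library 1 stood at 0.0883 times the median of the others, the lowest of the 58 genes. The noncoding exon of 124 nt at chr3:17603511-17603634, minus strand, had a PSI of 0.625 and 0.663 with RBFOXi and of 0.248 and 0.554 with SCRM. The value of 0.248 rests on 7 counts, with an exact 95% counting interval from 0.0460 to 0.660. The groups did not overlap. Delta PSI was 0.243 with an unadjusted limma p-value of 0.0315, and 0.0899 without SCRM library 1.

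The next coding exon with a large difference in TBC1D5, of 70 nt at chr3:17469942-17470011, gave 0.876 and 0.923 with RBFOXi against 0.606 and 0.879 with SCRM. RBFOXi library 1 and SCRM library 2 were nearly equal, so the groups overlapped, and delta PSI went from 0.157 to 0.0207 without SCRM library 1 and its 13 counts. A coding exon of 66 nt at chr3:17275177-17275242, which most transcripts lacked, was at 0.0739 and 0.0647 with RBFOXi and at 0 and 0.0517 with SCRM. The count of 0 inclusion reads out of 25 in SCRM library 1 has an upper counting limit of 0.104, above all 3 other libraries. The other 3 tested exons of TBC1D5 were between 0.959 and 1 in every library. Paired as the first of 2 exons, the 132 nt exon against the 70 nt exon gave 0.368 and 0.367 with RBFOXi and 0.690 and 0.425 with SCRM, on 299, 335, 10 and 579 counts. Its unadjusted limma p-value was 0.0327, and delta PSI went from -0.189 to -0.0567 without SCRM library 1.

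**Figure D4:**
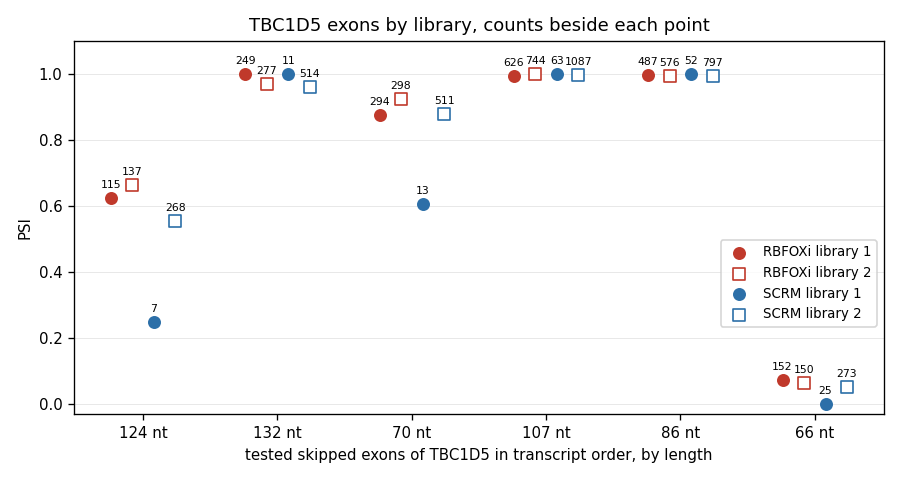
PSI of the 6 tested skipped exons of TBC1D5 in transcript order, named by length, in each library (red, RBFOXi; blue, SCRM; filled circles, library 1; open squares, library 2), with the counts above each point. SCRM library 1 has 7 to 63 counts at these exons and lies apart from the other libraries at the 124 and 70 nt exons, where it has 7 and 13.

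By role, the Rabs of the endocytic and recycling pathways had 36 tested exons in 13 genes, with a median delta PSI of -0.000264 and a range from -0.0757 to 0.0258. At exon level, the share of all exons with an unadjusted p-value under 0.05 was 3.74% and the share without overlap 30.9%. In this role 0 exons had such a p-value, 1 exon was higher and 6 were lower without overlap. RAB4A, which drives fast recycling to the cell surface, had 2 of the lower exons. The coding exon of 81 nt at chr1:229422233-229422313 gave 0.842 and 0.856 with RBFOXi and 0.9002 and 0.911 with SCRM, on 49, 81, 40 and 90 counts. The coding exon of 115 nt after it, at chr1:229424476-229424590, gave 0.833 and 0.813 against 0.903 and 0.855. Neither pair of groups overlapped, but the skipping reads behind each value numbered 2 to 6, and the unadjusted limma p-values were 0.490 and 0.559. The skipping counts were the same at both exons, 4 and 6 with RBFOXi and 2 and 4 with SCRM. Both events skip between the same flanking exons, so the 2 exons are not separate observations. In RAB22A, a Rab of early endosomes, an 82 nt exon stood at 0.879 and 0.893 against 0.869 and 0.899, a difference smaller than the spread between replicates. RAB9A, which carries receptors from late endosomes back to the Golgi, had an 89 nt exon at 0.813 and 0.798 against 0.8004 and 0.808.

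The Rabs of the secretory pathway and Golgi had 40 tested exons in 15 genes, of which 7 were higher and 6 lower without overlap, with a median delta PSI of 0.000897. Most were constant: the exons of RAB1A, which acts between the endoplasmic reticulum and the Golgi, lay between 0.986 and 1 in every library on 4688 to 9223 counts. The Rabs of regulated secretion and lysosome-related organelles had 8 exons in 5 genes, 2 higher and 1 lower. RAB27A, which docks secretory granules and melanosomes, had both of its tested exons higher. Its noncoding exon of 120 nt at chr15:55562363-55562482 gave 0.929 and 0.941 with RBFOXi and 0.911 and 0.915 with SCRM, on 1048 to 2405 counts. Its rarely used noncoding exon of 89 nt at chr15:55530601-55530689 gave 0.0193 and 0.0225 against 0.00135 and 0.0185. The second difference had an unadjusted limma p-value of 0.0425, and RBFOXi library 1 and SCRM library 2 differed by little.

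The remaining Rabs, of the cilium and other roles, had 8 exons in 3 genes, with a median delta PSI of -0.00582. RAB28, a Rab of the cilium, has an exon of 95 nt at chr4:13371495-13371589 that most transcripts lacked. Its PSI was 0.228 and 0.278 with RBFOXi and 0.233 and 0.357 with SCRM, so the groups overlapped. Its 89 nt exon at chr4:13475942-13476030 was at 1 in both RBFOXi libraries and at 0.957 and 0.993 in the SCRM libraries. Those values rest on 0 and 0 skipping reads with RBFOXi and 3 and 1 with SCRM. RAB40C, which joins a ubiquitin ligase, lay apart by library number and not by oligonucleotide, with 0.614 and 0.796 for RBFOXi and 0.613 and 0.805 for SCRM at its 61 nt exon. RAB23, a negative regulator of Hedgehog signalling, gave 0.940 and 0.901 against 0.961 and 0.951 at a 220 nt exon, without overlap.

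The TBC1D genes had 86 tested exons in 22 genes, 15 higher and 19 lower without overlap, with a median delta PSI of -0.000626 and a range from -0.101 to 0.243. At 3 of the exons the unadjusted p-value was under 0.05, in TBC1D5, TBC1D10B and TBC1D23. TBC1D7, the small subunit of the tuberous sclerosis complex, showed the largest difference without overlap among the exons with at least 100 counts in every library. Its coding exon of 81 nt at chr6:13325326-13325406, minus strand, had a PSI of 0.832 and 0.763 with RBFOXi and of 0.918 and 0.860 with SCRM, on 286, 334, 444 and 313 counts. Both RBFOXi libraries were below both SCRM libraries. The log2 odds change was -1.04 ± 0.50 (SE), with an unadjusted limma p-value of 0.0560. Delta PSI was -0.0912, and between -0.126 and -0.0568 with any 1 library left out. The exon was named by a rule that asks for groups without overlap, so its separation and the constant sign of these values follow from the choice. TBC1D7 is 1 of the 9 genes whose scaled counts in SCRM library 1 were above the median of the others, at 1.90 times.

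TBC1D23, which captures endosome-derived vesicles at the Golgi, had its 171 nt coding exon at 0.921 and 0.962 with RBFOXi and at 1 and 0.986 with SCRM. Its 205 nt coding exon went the other way, with 1 and 0.997 against 0.979 and 0.992 and an unadjusted limma p-value of 0.0479. TBC1D10B, an activating protein for RAB35 among others, gave 0.969 and 0.949 against 0.992 and 0.971 at its 190 nt coding exon, with an unadjusted p-value of 0.0490. There RBFOXi library 1 was only just below SCRM library 2. Its 108 nt exon was used in most but not all transcripts, with 0.801 and 0.696 against 0.639 and 0.753, and the groups overlapped.

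In TBC1D12 the coding exons of 81 nt and 89 nt stood on opposite sides. The 81 nt exon at chr10:96267024-96267104 gave 0.826 and 0.867 with RBFOXi against 1 and 0.895 with SCRM, and the 89 nt exon at chr10:96269848-96269936 gave 1 and 0.947 against 0.850 and 0.937. SCRM library 1 had 12 and 15 counts at these exons. TBC1D24, a gene of synaptic vesicle traffic, skipped its 18 nt exon at chr16:2547711-2547728 in most transcripts, with 0.0799 and 0.0642 against 0.178 and 0.0911. These values rest on 1, 1, 1 and 2 inclusion reads, and delta PSI went from -0.0627 to -0.0190 without SCRM library 1. TBC1D1, an activating protein of glucose transporter traffic, used a 162 nt coding exon at chr4:38053520-38053681 rarely. It was at 0.0361 and 0.0537 with RBFOXi and at 0.0282 and 0.0182 with SCRM, without overlap and with an unadjusted limma p-value of 0.0750. Its paralogue TBC1D4 had a 159 nt exon at 0.928 and 0.945 against 0.871 and 0.967, where SCRM library 1 was the lowest and SCRM library 2 the highest.

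Among the smaller event types, TBC1D17, an activating protein that acts on RAB8 at recycling endosomes, used an alternative 3′ splice site 14 nt upstream in under 1% of reads, with 0.00865 and 0.00880 against 0 and 0.00186. The unadjusted limma p-value was 0.0159, the smallest of any member, on a delta PSI of 0.00779. These TBC1D17 values rest on only 6, 5, 0 and 1 reads of the longer form, in that order. Retained introns were measured in RAB43, a Rab of the Golgi, at 0.977 and 0.965 against 0.943 and 0.951, and in TBC1D25 at 0.0266 and 0.0313 against 0.0181 and 0.0250. The groups did not overlap in either, and these are the 2 separated ones of the 3 tested introns. The spliced form of RAB43 had 2 and 3 reads with RBFOXi and 3 and 4 with SCRM. The retained form of TBC1D25 had 11 and 12 against 4 and 11. The unadjusted limma p-values were 0.384 and 0.561.

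UGCAUG was searched on the transcribed strand in the first 300 nt of the intron downstream of each tested exon and in the last 300 nt of the intron upstream. Downstream it was present at 18 of the 178 exons (10.1%), in 13 genes, and at 8.36% of all 30617 exons. Exons of RAB6A, TBC1D8 and TBC1D25 share a site with a neighbouring exon or another form of the same exon. The share was 15.1% in TBC1D genes (13 of 86) and 5.43% in Rab genes (5 of 92). Upstream it was present at 14 exons (7.87%), against 8.16% of all. The windows below hold the downstream sites that begin within 60 nt of a member exon outside RAB6A, with the motif in capitals.
RAB36 (chr22:23498237-23498266, plus strand, 30 nt after a 65 nt exon): ucggggcucaacUGCAUGcagcagcggggu
RAB4A (chr1:229422332-229422361, plus strand, 31 nt after the 81 nt exon): gucauucuuccgUGCAUGucuucugagagc
TBC1D13 (chr9:131553096-131553125, plus strand, 54 nt after a 41 nt exon): ccuggguuuuccUGCAUGggcugccccuac
TBC1D25 (chrX:48399946-48399975, plus strand, 57 nt after a 181 nt exon): aacagccacguaUGCAUGucuuggagcaca
TBC1D8 (chr2:101706595-101706624, minus strand, 59 nt after a 156 nt exon): augcugaguaucUGCAUGuuggugaagcuu
At the 18 exons with a downstream site the median delta PSI was -0.00299, with a range from -0.0572 to 0.0359. Of these exons 6 were lower and 2 higher without overlap, where 30.9% of all exons were separated, and 0 had an unadjusted p-value under 0.05. At the 149 exons without a site on either side the median was -0.000103, with 27 lower and 23 higher. The 14 exons with an upstream site had a median of -0.000643, with 3 lower and 1 higher. The difference between these classes was not tested.

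The 5 exons outside RAB6A with the nearest downstream sites did not move as 1 group. The RAB4A exon is given above. The TBC1D8 exon of 156 nt, at chr2:101706671-101706826, was at 0.936 and 0.9501 with RBFOXi and at 1 in both SCRM libraries, on 79, 103, 29 and 151 counts. Its skipping form had 2 reads in each RBFOXi library and 0 in each SCRM library. The exact 95% counting intervals ran from 0.795 to 0.992 and from 0.837 to 0.994 with RBFOXi and reached down to 0.735 and 0.938 with SCRM, so they overlap. The 41 nt exon of TBC1D13, an activating protein for RAB35, lay higher with RBFOXi, at 0.936 and 0.933 against 0.877 and 0.920. RAB36 gave 0.921 and 0.904 against 1 and 0.920 at its 65 nt exon. The TBC1D25 exon of 181 nt, in a gene for an activating protein of autophagy, gave 0.817 and 0.8001 against 0.723 and 0.859. The SCRM libraries of TBC1D25 lay on both sides of the RBFOXi libraries, as they did for its 110 nt form that ends at an earlier 5′ splice site. Farther from a site, the 155 nt exon of TBC1D25 gave 0.690 and 0.791 against 0.725 and 0.711, and the 45 nt exon of TBC1D23 gave 0.873 and 0.853 against 0.790 and 0.899. The groups overlapped at both.

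Behind these PSI values, the counts of the member genes differed between libraries, and the difference ran with transcript length. The ratio of scaled counts in SCRM library 1 to the median of the other libraries ran from 0.0883 in TBC1D5 to 2.89 in RAB33A. It was under 0.5 in 26 of 58 genes (44.8%), against 34.1% of all genes, and above 1 in 9. Across the 58 genes its Spearman correlation with the longest annotated transcript was -0.575 and with the gene's span -0.433, a description over genes that share the same libraries. The ratio of RBFOXi library 1 to RBFOXi library 2, between 0.507 and 2.29, had correlations of 0.110 and 0.0814 with the same lengths. The part of these count differences in the PSI values was not tested.

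**Figure D5:**
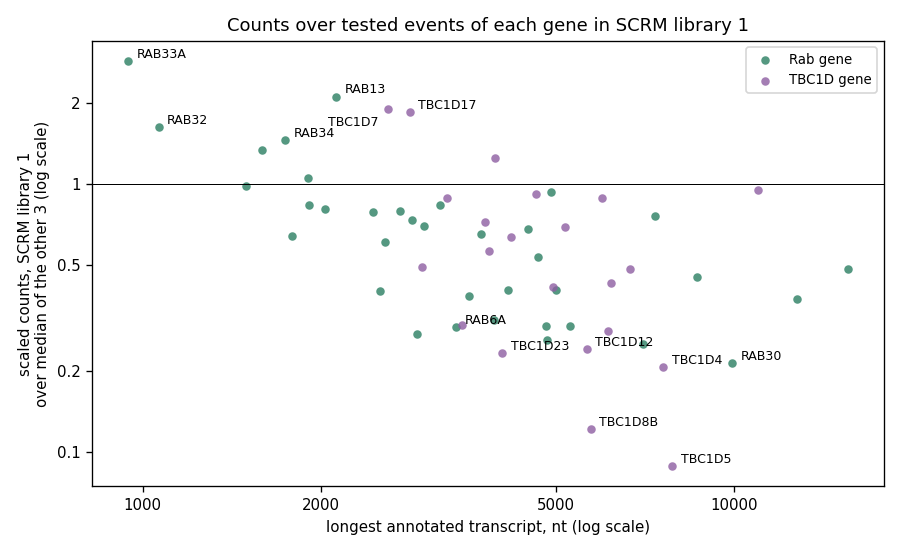
Counts over tested skipped exon events in SCRM library 1, scaled by library total and divided by the median of the other 3 libraries, against the longest annotated transcript of each of the 58 Rab (green) and TBC1D (purple) genes, both axes on log scales. TBC1D5 lies lowest at 0.0883 and RAB33A highest at 2.89, and most genes with long transcripts lie below 1.

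SCRM library 1 was the lowest or highest of the 4 libraries at 102 of the 178 exons (57.3%), close to the 56.0% of all tested exons. At the 35 exons with intermediate inclusion it was so at 27, and the median difference between the SCRM libraries there was 0.0631, against 0.0203 between the RBFOXi libraries. These 35 exons were chosen by a mean SCRM PSI that includes SCRM library 1. The choice can thus bring in exons where that library lies apart, and the share over all exons of this class was not computed.

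The wider Rab pathway was read from a list of 90 other genes, of which 68 had a tested skipped exon event. In 349 events, 1 was called higher and 0 lower (0.287%, against 0.0682% of all tested events), and 17 had an unadjusted p-value under 0.05 (4.87%, against 3.61% of all). Exchange factors had 0 called of 147 events in 29 genes, activating proteins without a TBC1D symbol 0 of 32 in 9 genes, and escort and prenylation factors 0 of 25 in 6 genes. Effectors had 1 called of 145 events in 24 genes. The called event was in SYTL2, a synaptotagmin-like effector that RAB27A recruits to vesicles. Its PSI was 0.769 and 0.866 with RBFOXi and 0.361 and 0.416 with SCRM, on 825, 478, 183 and 370 counts, with an adjusted limma p-value of 0.0187. Of 12 alternatives 9 kept this call. It was lost with a pseudocount of 0.1 (adjusted p = 0.504), without SCRM library 1 (0.409) and without SCRM library 2 (0.257). The groups lay far apart in SYTL2, while at both tested exons of its partner RAB27A the delta PSI was 0.0217 or less.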

How the data were processed

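Cells of the U87MG line were sequenced after transfection with RBFOXi (2 libraries) or SCRM (2 libraries). The authors aligned the reads to hg19 with STAR 2.4.2a (submitters' processing notes) and counted them per event with rMATS. The deposited tables give, for each event, pairs of inclusion and skipping counts, without normalization, and effective lengths of both forms. Each cell holds the counts of library 1 and library 2 of a group, as the labels number them. The deposited p-values, FDR and inclusion levels are the authors' own comparison and were not used.

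Events were tested with 5 or more counts in each library, 20 or more on average and 4 or more of either form in all. The log2 odds of inclusion (pseudocount 0.5) were fitted on condition with limma 3.58.1 in R 4.3.3 over all events of a type, with Benjamini-Hochberg adjustment. Reads without molecular identifiers need not be separate molecules. Where an exon occurred in several events, the one with the most counts was described. Counting intervals are exact (Clopper-Pearson). Introns were read from GRCh37, the same assembly as hg19, and 99.0% of 61234 introns beside tested exons had GT and AG ends. Gene models were GENCODE, lifted to that build. Python 3.11.15 with scipy 1.17.1 was used.

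The members, lists and named events were chosen with earlier results of these data known. Events were named by rule: any called, the 8 largest falls and 8 largest rises among skipped exons and 3 and 3 in each other type with a mean of at least 50 counts and no overlap, the 10 deepest exons with SCRM PSI from 0.2 to 0.8, exons with SCRM PSI from 0.05 to 0.95 near UGCAUG, the RAB6A pair, and an unadjusted p-value under 0.01. Other exons in the text (RAB2A, RAB18, RAB22A, RAB9A, RAB1A, RAB36, the 89 nt exon of RAB27A, the 205 nt exon of TBC1D23, the 190 nt exon of TBC1D10B) were chosen after their values were seen. For the named falls and rises, the lack of overlap between the groups is part of the choice. Alternatives covered pseudocount, count filter, replicate block, each library left out, delta PSI minimum, the plain share of counts, 1 event per region, a quasi-binomial test and the motif window.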

Additional observations from a re-analysis of the deposited data

How the results depend on the processing

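Over the alternatives run, the count of called members stayed at 0 in every event type, with the exception of mutually exclusive exons without SCRM replicate 2, where it was 8 (range 0 to 8 over the libraries left out). The planned edgeR test was not run, because the counts are deposited as pairs. With the replicate number as a block, 15 skipped exon members had an unadjusted p-value under 0.05 (6.17%, against 5.82% of all), and 6 without it. For pairs the count was 4 (2.17%, against 3.75% of all), and 2 without the block, and 0 members were called. Deviations of same-numbered libraries correlated by 0.0944 over skipped exon events, and the labels give same-numbered libraries a shared name ending without saying what it stands for. For skipped exons the count of unadjusted p-values under 0.05 was 14 with 1 count per library as the only minimum, 12 in a quasi-binomial F test chosen after seeing the data, and 3 to 15 with a library left out (13 without RBFOXi replicate 1, 3 without RBFOXi replicate 2, 4 without SCRM replicate 1 and 15 without SCRM replicate 2). For pairs it was 0 with 20 counts in every library, 1 in the quasi-binomial test, 1 with 1 event per pair, and 2 to 56 with a library left out (7 without SCRM replicate 1, 56 without SCRM replicate 2). The lone SCRM or RBFOXi library in such a fit is assumed to vary like the others. The median delta PSI of skipped exon members ran from -0.000413 to 0.000216 with a library left out. The pentamer GCAUG was present downstream of 39 member exons (21.9%, against 24.1% of all), UGCAUG of 12 in 200 nt and 26 in 500 nt.

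An event whose groups do not overlap cannot change the sign of delta PSI when 1 library is left out. Most of the 38 named events were chosen by a rule that asks for no overlap, so their constant sign follows from the choice. The sign of delta PSI turned for 10 of the 38 when 1 library was left out, all with overlapping groups. Their ranges were -0.0282 to 0.0727, -0.0390 to 0.0597 and -0.0503 to 0.0860 for the TBC1D25 exons of 155, 110 and 181 nt, -0.0307 to 0.0654 for TBC1D4, -0.0365 to 0.0731 for the 45 nt exon of TBC1D23, -0.104 to 0.0195 for the 95 nt exon of RAB28, -0.0999 to 0.0922 for RAB40C, -0.0414 to 0.124 for the 124 nt exon of TBC1D12, -0.00491 to 0.109 for the 108 nt exon of TBC1D10B and -0.0111 to 0.394 for the 112 nt exon of RAB6A. Of the named events with overlapping groups, only the 70 nt exon of TBC1D5 kept its sign. The cause was not tested. Depth limits SCRM library 1 most, with under 30 counts at the TBC1D5 and TBC1D12 exons named for their differences.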
